A study of Mus musculus with 13 samples.

Results

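Primary bone marrow-derived macrophages given IL-4 for 4 h were compared with untreated macrophages by chromatin immunoprecipitation and sequencing of histone H3 acetylated at lysine 27 (H3K27ac). The islands of H3K27ac enrichment that the authors called in these 2 libraries were merged where they shared at least 1 bp. This gave 34465 regions, against 39569 regions when the islands of all 13 libraries of the series were merged. Each region carries the raw ChIP reads of its islands in each library, scaled to the same median over regions called in both and written below as normalised reads. The cells came from C57BL/6 bone marrow grown in L929-conditioned medium and were harvested on day 7 of differentiation. IL-4 was given at 10 ng/ml, the untreated cells received no cytokine, and both libraries used the H3K27ac antibody ab4729. The other libraries, used here only for comparison, held cells given IL-4 for 2 h, IFNγ at 100 ng/ml or both cytokines, and cells carrying a scramble or a targeting shRNA. There was 1 library per condition, so no difference below has a replicate check and none carries a p-value. Each interval of a fold is an exact binomial one at 95%. It covers counting error only, because 1 library per condition gives no measure of differences between replicates. The reads have no molecular identifiers, so copies of 1 fragment cannot be told from separate fragments, and the intervals may be too narrow even for counting error.

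IL-4 is a cytokine of type 2 immunity that acts on macrophages through a receptor made of IL-4Rα and the common γ chain. Receptor-bound JAK kinases phosphorylate STAT6, which binds DNA and turns on the programme called alternative activation, with Arg1, Retnla, Chil3 and Mrc1 as its usual mouse markers. H3K27ac marks active enhancers and promoters, and long stretches of it are found around genes that are strongly transcribed in a cell type. The mark is read over DNA and is not a measure of RNA.

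Library totals were recovered from the authors' fold of ChIP over scaled control reads, where control totals of 14110230 and 28220460 reads both fitted. With the smaller one, the IL-4 library held 25.45 M reads and the untreated library 21.71 M, with 79.98% and 77.51% of them in islands. The larger one would raise the totals and lower these shares in proportion. The IL-4 library had 32962 islands covering 176.309 Mb, against 29398 islands covering 183.423 Mb in untreated cells, so the reads lay over a shorter length at 115.46 reads per kb, against 91.753 reads per kb. The label of the cells was checked on marker genes. All 12 macrophage markers were called in both libraries, and Csf1r, the receptor for the growth factor of macrophages, had 13780.1 normalised reads with IL-4 and 12152.2 in untreated cells. Spi1, which encodes the macrophage transcription factor PU.1, had 11013.5 and 9580.7, and Adgre1, which encodes F4/80, had 2043.2 and 1457.7. Cpa3 and Kit of mast cells, Cd3e and Cd8a of T cells, Pax5 of B cells, Ly6g, S100a8 and Mpo of neutrophils, Epx of eosinophils and Col1a1 of fibroblasts were called in neither library. Of the other cell type lists, 3 of 9 mast cell and basophil markers, 4 of 9 for T cells, 3 of 7 for B cells, 2 of 8 for neutrophils, 5 of 8 for dendritic cells, 2 of 5 for eosinophils and 1 of 8 for fibroblasts and stroma were called in at least 1 library. Their summed reads with IL-4 and in untreated cells were 5220.1 and 1513.4 for mast cells, 3564.3 and 10138.6 for T cells, 3340.9 and 6723.1 for B cells, 4492.0 and 5597.3 for neutrophils, and 4688.9 and 8348.9 for dendritic cells. They were 7869.5 with IL-4 and 6203.3 in untreated cells for eosinophils, and 13780.1 and 12152.2 for fibroblasts, where Pdgfrb shared its region with Csf1r. Ms4a2 of mast cells also shared its regions, with Ms4a3 and Ms4a6d, and Cd4 shared its own with Lag3. The part of other cells in the results below was not tested. In a bulk library, a change in the number of cells that carry the mark and a change in the mark per cell cannot be told apart.

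The start of a gene that gained H3K27ac can be read as sequence. Below are the bases before the start of 4 genes of the alternative activation list that were higher with IL-4, with matches to STAT-type motifs in capitals. The bases are given 5′ to 3′ on the gene's strand, from RefSeq on GRCm38.p6. TTCNNNNGAA has the spacing that STAT6 is known to bind, and TTCNNNGAA the spacing that other STAT proteins bind. Each motif is its own reverse complement, so a match counts on both strands, and the 2 motifs were searched separately, whether or not matches overlapped. Tmem26 is a membrane protein gene, Retnla encodes the secreted resistin-like protein RELMα, Chil4 encodes a chitinase-like protein and Itgax encodes the integrin CD11c.
Tmem26, chr10:68723496-68723745, plus strand: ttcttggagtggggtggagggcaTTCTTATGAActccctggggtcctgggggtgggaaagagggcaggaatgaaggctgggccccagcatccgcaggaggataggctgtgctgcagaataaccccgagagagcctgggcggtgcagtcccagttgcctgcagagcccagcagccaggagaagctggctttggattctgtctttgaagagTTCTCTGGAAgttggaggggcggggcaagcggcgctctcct
Retnla, chr16:48842359-48842608, plus strand: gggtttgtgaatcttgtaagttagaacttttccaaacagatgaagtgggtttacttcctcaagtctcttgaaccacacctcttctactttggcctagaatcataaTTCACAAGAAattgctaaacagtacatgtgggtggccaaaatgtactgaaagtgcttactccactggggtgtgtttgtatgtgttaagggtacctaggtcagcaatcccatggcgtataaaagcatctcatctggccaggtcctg
Chil4, chr3:106219480-106219729, minus strand: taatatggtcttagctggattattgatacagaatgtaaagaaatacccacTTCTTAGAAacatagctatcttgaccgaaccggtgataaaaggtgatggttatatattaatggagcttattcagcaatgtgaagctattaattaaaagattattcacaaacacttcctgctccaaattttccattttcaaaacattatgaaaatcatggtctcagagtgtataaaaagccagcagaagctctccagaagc
Itgax, chr7:128129300-128129549, plus strand: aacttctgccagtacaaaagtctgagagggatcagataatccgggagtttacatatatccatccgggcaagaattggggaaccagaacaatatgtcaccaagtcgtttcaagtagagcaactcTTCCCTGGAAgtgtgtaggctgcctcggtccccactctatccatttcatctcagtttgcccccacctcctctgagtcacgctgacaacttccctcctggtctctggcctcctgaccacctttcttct
The matches begin 227 and 41 bases before the gene start in Tmem26, 145 in Retnla and 200 in Chil4. In Itgax the match begins 127 bases before the start used for its promoter window. That start lies inside the annotated gene span, which begins at 128129526. Cish, a feedback inhibitor of cytokine signalling, held matches at its start itself, at positions 1 and 12 counted from the first base of the gene.
Cish, chr9:107296653-107296682, plus strand: ccagttTTCCTGGAAagTTCTTGGAAatct
The islands over these starts differed between the libraries. In the IL-4 library an island of 39.8 kb with 3862.9 normalised reads lay over the Tmem26 start, one of 5.0 kb with 288.5 over Retnla, one of 11.8 kb with 1577.0 over Chil4 and one of 48.0 kb with 8569.2 over Cish, and the untreated library had no island over any of these 4 starts. Over the Itgax start the islands measured 9.2 kb with 1852.7 reads with IL-4 and 8.2 kb with 491.4 in untreated cells. Over all 32851 promoter windows in the RefSeq table, which run from 250 bases before the start to 50 after it, 6.95% held TTCNNNNGAA, 8.3% held TTCNNNGAA and 14.6% held either. The share of windows with either was 12.7% for genes higher with IL-4, 13.4% for genes lower and 12.1% for the other genes measured. A gene can have more than 1 window. The 22 higher genes of the alternative activation and SOCS lists had 16 windows in the table. Of these windows 6 held a match, those of Chil3 and of the genes shown. A match is a description of letters and not a site of binding.

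A region was counted as higher or lower with IL-4 when the normalised reads of the libraries differed at least 2-fold and the higher library had at least 50. By this size rule 4746 of 34465 regions were higher with IL-4 (13.8% of regions) and 6296 were lower (18.3%). Both libraries had islands in 23548 regions, which held 95.28% of the IL-4 and 97.27% of the untreated island reads, and among these 2580 were higher (11.0%) and 3706 lower (15.7%). Another 6638 regions were called with IL-4 alone, of which 2166 counted as higher, and 4279 in untreated cells alone, of which 2453 counted as lower. Where a library had no island the size rule used a filled-in value, the 5th percentile of the reads of that library's islands, 37.5 normalised reads with IL-4 and 51.3 in untreated cells. A region not called is one the authors' threshold left out, which is no measurement of 0. For scale, the rule counted 32.5% of regions in either direction for IL-4 at 2 h over untreated, 12.3% for IL-4 at 4 h over 2 h and 19.7% for untreated scramble cells over untreated cells, against 32.0% for IL-4 at 4 h over untreated. The scramble cells had no cytokine but carried an shRNA. By the same smaller control total, 68.56% of their reads lay in islands, against 77.51% in untreated cells. Their 19.7% thus holds the shRNA and differences between libraries together, and it cannot give the size of either alone.

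**Figure D1:**
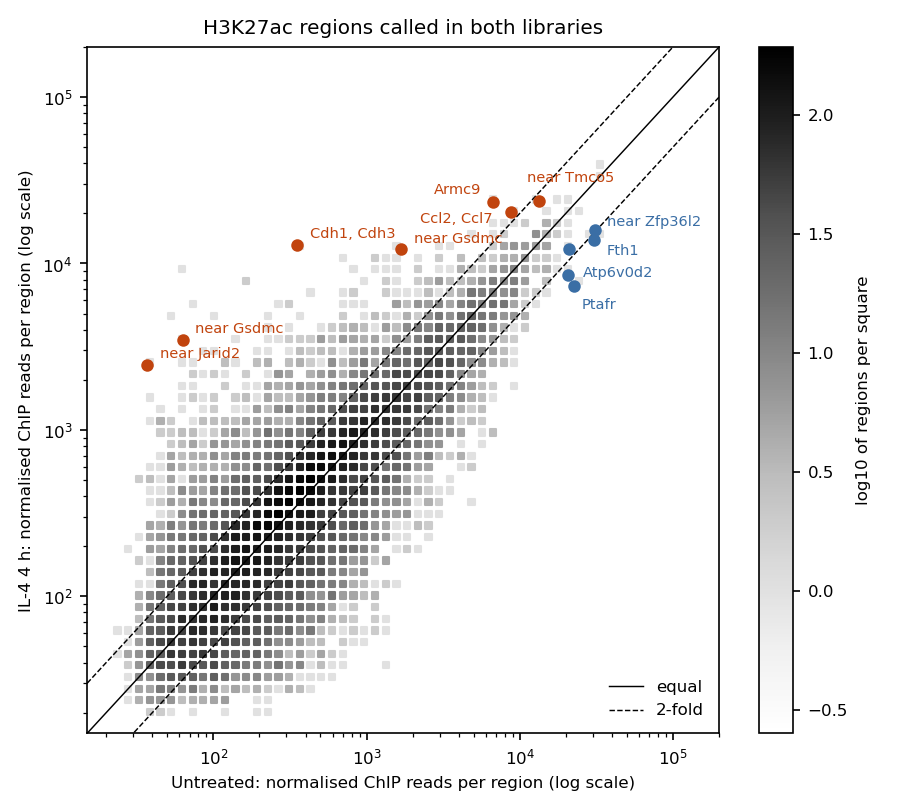
Each square groups the H3K27ac regions called in both libraries by normalised ChIP reads in untreated cells (x axis, log scale) and after 4 h of IL-4 (y axis, log scale), and darker squares hold more regions. The solid line marks equal reads and the dashed lines a 2-fold difference, and coloured points are regions named in the text, such as the Cdh1 and Cdh3 region with 12966.0 reads with IL-4 and 353.8 in untreated cells.

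The counts differed with the place of a region. Of 8534 regions over a gene start, 9.23% were higher and 6.01% lower with IL-4. Of 15443 regions within a gene span but over no start, 13.9% were higher and 22.2% lower. Of 10488 regions outside genes, 17.2% were higher and 22.5% lower. By reads, regions over gene starts were thus more often higher than lower, and regions elsewhere more often lower than higher. Per kb, gains outnumbered losses in each place, with 627 higher and 97 lower over gene starts, 955 and 459 within gene spans and 712 and 376 outside genes. The median per-kb log2 ratio of regions called in both was itself above 0 in each place, at 0.28, 0.09 and 0.07 in that order. Narrow regions moved least often, with 3.4% higher and 6.67% lower among those of up to 2 kb, and among regions of over 20 kb 18.0% were higher and 16.0% lower. A region needs at least 50 normalised reads to pass, and narrow regions hold fewer reads.

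Most of the regions that moved also changed in length. The 2580 higher regions called in both libraries had a median called length of 6.8 kb with IL-4 and 3.2 kb in untreated cells, and 92.9% of them were longer with IL-4. Their median density was 88.2 reads per kb with IL-4 and 49.1 in untreated cells. The 3706 lower regions had a median length of 2.6 kb with IL-4 and 6.6 kb in untreated cells, 99.4% were longer in untreated cells, and their density was 47.9 and 65.2 reads per kb. Regions in neither class measured 3.6 kb with IL-4 and 4.2 kb in untreated cells, at 89.1 and 77.5 reads per kb, and 65.9% of them were denser with IL-4. Since a sum of reads grows with the length called, the size rule was also applied to reads per kb of called length. Then 2294 of 34465 regions were higher with IL-4 (6.66%) and 932 were lower (2.7%), and 34.9% of the higher and 12.6% of the lower regions called in both passed per kb as well. Fewer losses than gains thus passed by density, and the share of all counted regions that were higher was 43.0% by reads and 71.1% per kb. Densities were not scaled again to a common median, and regions in neither class were also denser with IL-4. The larger number of gains per kb therefore includes this general shift.

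**Figure D2:**
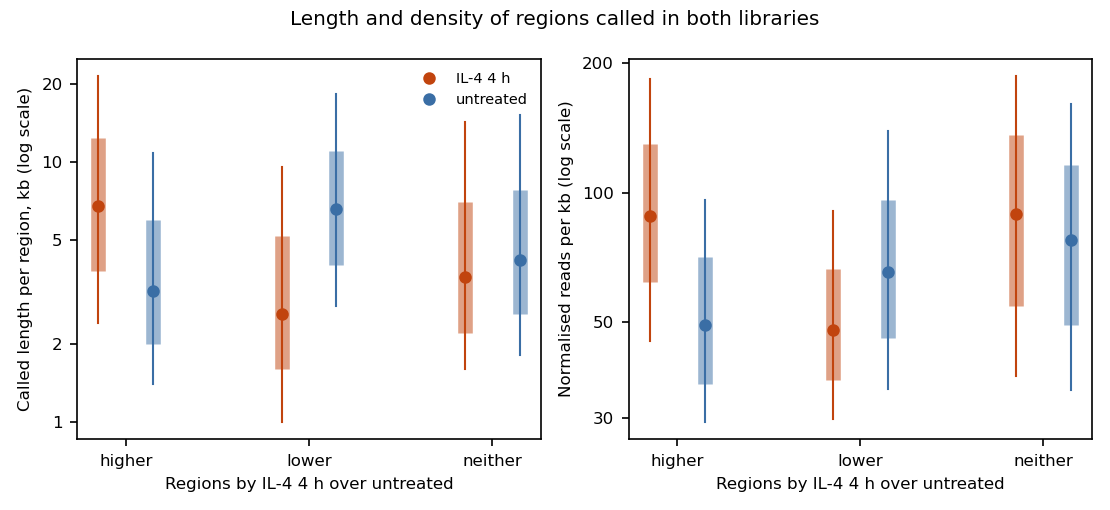
Called length per region in kb (left) and normalised reads per kb of that length (right), both on log scales, for regions called in both libraries and counted as higher, lower or neither with IL-4. Points are medians, thick bars the middle 50% and thin bars the 10th to 90th percentiles for IL-4 at 4 h (orange) and untreated cells (blue); higher regions had a median of 6.8 kb with IL-4 and 3.2 kb in untreated cells.

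The largest gains in called length formed long domains, most of them over several separate islands of the untreated library. A region at Cradd, an adaptor of cell death signalling (chr10:95135001-95270800), was 135.8 kb in 1 island with IL-4 and 44.4 kb in 7 islands in untreated cells, with 13110.6 and 2891.4 normalised reads. At Socs5, a gene of the SOCS family (chr17:87135401-87208200), 72.8 kb in 1 island with IL-4 stood against 12.8 kb in 5 islands. A region in Rad51b, a gene of DNA repair (chr12:79671201-79819200), was 146.8 kb in 2 islands with IL-4 and 82.6 kb in 12 islands in untreated cells, with 10399.9 and 3974.7 reads. An intergenic region at chr15:63494201-63561000 was a single island in each library, of 66.8 kb with IL-4 and 5.0 kb in untreated cells, with 8350.3 and 172.5 reads. The reverse was seen in an intergenic region at chr2:117948801-118017600, which measured 18.4 kb in 3 islands with IL-4 and 68.8 kb in 1 island in untreated cells, with 2371.9 and 8626.3 reads. Of 18412 regions that gained reads, the 1000 with the largest gains held 46.3% of the summed gain. Of 16053 that lost reads, the 1000 with the largest losses held 44.9% of the summed loss.

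By difference in reads, the region that gained most lay in Armc9 (chr1:86176801-86287600), with 23405.2 normalised reads with IL-4 and 6738.3 in untreated cells, 3.47-fold higher (95% interval 3.38 to 3.57). It covered 110.8 kb with IL-4 and 71.8 kb in untreated cells, at 211.2 and 93.85 reads per kb. The region of the adjacent cadherin genes Cdh1 and Cdh3 (chr8:106543001-106630800) followed with 12966.0 and 353.8 reads, 36.7-fold higher (32.8 to 41.0). Cdh1 encodes E-cadherin, an adhesion molecule that IL-4 is known to induce on mouse macrophages. The region of Ccl2 and Ccl7, which encode attractants of monocytes (chr11:81994401-82055800), had 20294.2 reads with IL-4 and 8739.9 in untreated cells, 2.32-fold higher. Its length was similar in the libraries, at 61.4 kb with IL-4 and 54.2 kb in untreated cells, so that it also passed per kb, at 330.5 and 161.3 reads per kb. An intergenic region 147.0 kb from Gsdmc, the nearest gene (chr15:63591801-63629000), had 12191.2 reads with IL-4 and 1684.9 in untreated cells, 7.24-fold higher (6.86 to 7.63). The last of the 5 largest gains, 4.1 kb from Tmco5 (chr2:116896601-117020000), had 23821.9 and 13422.1 reads, a ratio of 1.78 that does not reach the size rule.

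The region that lost most held Fth1, the ferritin heavy chain gene that stores iron, with Best1 (chr19:9910801-9995200). It had 13825.9 normalised reads with IL-4 and 30456.3 in untreated cells, 2.203 times lower (2.16 to 2.25), over 79.0 and 84.4 kb. The region of Ptafr, which encodes the receptor for platelet-activating factor, and Eya3 (chr4:132561001-132641200) had 7320.0 reads with IL-4 and 22480.8 in untreated cells, 3.07 times lower (2.99 to 3.15). Atp6v0d2, which encodes a subunit of the vacuolar proton pump, lay with Slc7a13 in a region (chr4:19837201-19907200) with 8513.3 and 20751.2 reads, 2.44 times lower (2.38 to 2.50). The density of each of these 3 regions fell while most of the length stayed called, at 175.0, 99.19 and 136.4 reads per kb with IL-4, against 360.9, 280.3 and 296.4 in untreated cells. The region 14.9 kb from Zfp36l2 (chr17:84050401-84169000), with 15898.4 and 30989.2 reads, and that of Ccl3, Ccl4, Ccl6 and Ccl9 (chr11:83556001-83669200), with 12221.4 and 21015.4, were also among the 5 largest losses but stayed inside the 2-fold limit. Untreated scramble cells had 18474.8 reads at Fth1, 13669.2 at Ptafr, 12254.0 at Atp6v0d2, 26263.5 near Zfp36l2 and 13244.8 at the Ccl region. Each lay between the IL-4 and the untreated value. The regions were chosen by their loss from this untreated library, and the reason for the lower scramble values was not tested.

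Outside genes, the largest ratios belonged to regions that were nearly or wholly uncalled in 1 library. An island of 24.2 kb, 40.8 kb from Jarid2 (chr13:44665801-44690000), had 2463.5 normalised reads with IL-4 and 37.1 in untreated cells, 66.4-fold higher (47.4 to 96.0). One of 37.0 kb, 854.2 kb from Gsdmc (chr15:62884801-62921800), had 3492.0 and 63.3 reads, 55.1-fold higher (42.6 to 72.8). Regions 807.6 kb from Myc (chr15:62798001-62825800) and 383.0 kb from Tcf4 had 3034.1 and 3948.0 reads with IL-4 and were not called in untreated cells. Among the losses, regions 165.7 kb from Thbs1 (chr2:117920001-117946200), 57.3 kb from Dscam (chr16:97228401-97253800), 59.6 kb from B3gnt5 (chr16:19832401-19849400) and 94.2 kb from Nxt1 (chr2:148558801-148578400) were not called with IL-4 and had 2052.8, 1944.7, 1406.4 and 1371.5 reads in untreated cells. The distances are to the nearest annotated gene and do not say which gene a region acts on.

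Regions called in 1 library alone were looked for in libraries that the comparison did not use. Of the 254 regions with at least 500 normalised reads that were called with IL-4 at 4 h and not in untreated cells, 100.0% were also called with IL-4 at 2 h and 96.1% with IFNγ plus IL-4 at 4 h. Fewer of them were called with IFNγ alone at 4 h (50.0%) and in untreated scramble cells (23.2%). Of the 58 such regions called in untreated cells alone, 31.0% were called with IL-4 at 2 h and 94.8% in untreated scramble cells. Between 48.3% and 56.9% of the 58 were also called in each of the libraries with IFNγ, alone or with IL-4. Among all 6638 regions of IL-4 at 4 h alone the share called with IL-4 at 2 h was 63.0%, and among all 4279 of the untreated library alone the share called in scramble cells was 64.9%.

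For genes, the reads of all regions touching the span or 1 kb either side were summed. Of 21887 protein-coding genes 13193 were measured, 1376 of them were higher with IL-4 (10.4%) and 1095 lower (8.3%), and the median log2 ratio over all genes measured was 0.15. By reads per kb 871 genes were higher (6.6%) and 144 lower (1.09%), with a median of 0.25. Neighbours share regions for 5650 of the genes, and the mark cannot be assigned to one of them there. Of the 130 genes named here that were counted by reads, 53 were also counted per kb, 63 were not and 14 took the opposite sign, such as Cd86, Il12b, Herc6, Lta4h and Olr1.

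In the alternative activation list more genes were higher than lower with IL-4. Of 41 genes 36 were measured, 19 were higher with IL-4 and 1 was lower, against 10.4% and 8.3% of all genes. The median log2 ratio was 1.16, against 0.15 over all genes. Per kb 11 were higher and none lower, with a median of 0.49. Arg1, the arginase that turns arginine into ornithine (chr10:24915207-24927470), had 9217.6 normalised reads with IL-4 and 1239.3 in untreated cells, 7.44-fold higher (6.99 to 7.92), over 40.8 and 11.6 kb that also touch Med23. Mgl2, a galactose-binding lectin gene (chr11:70130125-70137542), had 2179.6 and 251.1 reads, 8.68-fold higher. Flt1, the gene of a VEGF receptor (chr5:147561604-147726438), had 12633.5 and 1381.3 reads, 9.15-fold higher, over 111.6 and 20.8 kb. Hbegf, an EGF receptor ligand, had 990.0 and 128.8 reads, 7.68-fold higher. Each of these genes gained length, and Arg1, Mgl2 and Hbegf also passed the rule per kb while Flt1 did not (per-kb log2 ratio 0.77).

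Of the 19 higher genes of that list, 7 were called with IL-4 alone. Tmem26 had 4074.4 normalised reads over 43.4 kb, and Rnase2a, a ribonuclease of the eosinophil-associated family (chr14:51255261-51256112), had 3968.2 over 38.0 kb. Chil4 had 2001.0 over 21.0 kb, and Slc7a2, a transporter of arginine, had 792.2 over 10.8 kb. Retnla had 288.5 over 5.0 kb, Chil3, also called Ym1, had 259.2 over 6.4 kb and Fn1, the fibronectin gene, had 129.1 over 3.6 kb. The first 4 of these were thus broad marks and the last 3 small ones. At 2 h of IL-4 Tmem26, Rnase2a, Chil4, Slc7a2 and Chil3 had 3082.7, 3348.0, 1484.8, 921.3 and 189.9 reads, and Retnla and Fn1 were not called.

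Several genes of the list already carried the mark in untreated cells. Itgax had 2872.0 normalised reads with IL-4 and 678.1 in untreated cells, 4.24-fold higher and also higher per kb. Il4i1, which encodes an amino acid oxidase, had 6074.5 and 1644.5, 3.69-fold higher, in regions shared with Atf5 and Nup62. Ccl24, which encodes the eosinophil attractant eotaxin-2, had 847.1 and 393.1, 2.16-fold higher. Olfm1 and Matk were 4.47-fold and 3.56-fold higher, and Matk lost its direction per kb (log2 ratio -0.08). Mrc1, the mannose receptor gene and a common marker of IL-4-treated macrophages, had 12780.0 and 7474.3 reads, a ratio of 1.71 that stayed under the rule. Igf1 had a ratio of 1.45 and Pdcd1lg2, which encodes PD-L2, one of 1.39, both under it too. F13a1, the gene of coagulation factor XIII, was the lower member, with 896.6 reads with IL-4 and 2052.8 in untreated cells, 2.29 times lower. The chemokine genes Ccl17 and Ccl22 were called in neither library, nor were Ear2, Chia1 and Cd209e.

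**Figure D3:**
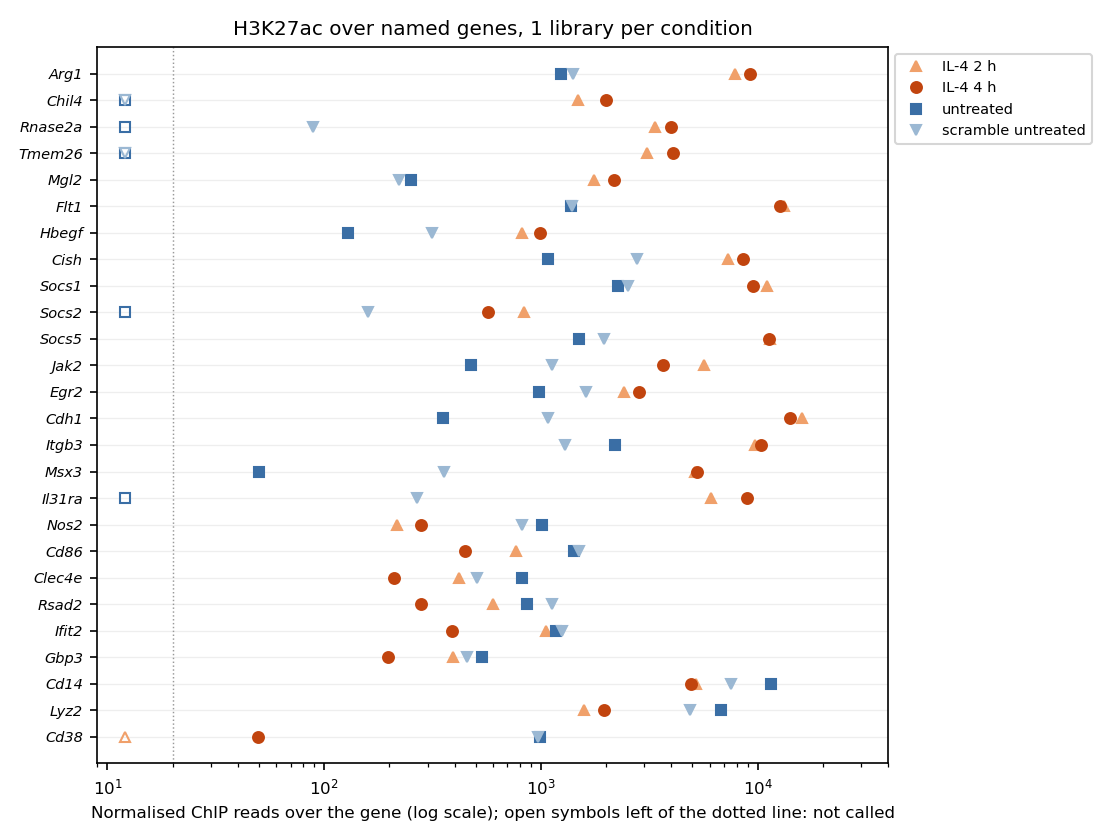
Normalised ChIP reads over 26 named genes (x axis, log scale) in the IL-4 2 h, IL-4 4 h, untreated and untreated scramble libraries, 1 library each, with open symbols left of the dotted line where a library had no island. Chil4 and Tmem26 were called in both IL-4 libraries and in neither library without cytokine, while Nos2 had 278.4 reads with IL-4 at 4 h and 1011.1 in untreated cells.

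IL-4 is known to induce its own inhibitors. Of 8 SOCS genes, whose products shut down JAK kinases and receptors, 4 were higher with IL-4 and 2 lower, with a median log2 ratio of 1.29. Over all genes 10.4% were higher and 8.3% lower. Cish (chr9:107296659-107302784) had 8569.2 normalised reads with IL-4 and 1082.1 in untreated cells, 7.92-fold higher (7.42 to 8.46). Socs1, an inhibitor of both IL-4 and interferon signalling (chr16:10783808-10785536), had 9541.8 and 2266.9 reads, 4.21-fold higher, over 68.2 and 20.8 kb shared with Clec16a. Socs5 had 11266.2 and 1493.8, 7.54-fold higher, and Socs2 had 567.8 with IL-4 and no island in untreated cells. The lower genes were Socs3, the inhibitor of IL-6-type receptors, with 1971.7 and 4508.6 reads, 2.29 times lower, and Socs6, with 465.2 and 1841.0, 3.96 times lower. Per kb only Socs2 and Socs5 were counted as higher and no SOCS gene as lower.

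Of 17 measured genes of IL-4 receptor and JAK-STAT signalling 1 was higher and none lower, against 10.4% and 8.3% of all genes. The median log2 ratio was -0.02 and, per kb, 0.16. The higher gene was Jak2, a kinase of several cytokine receptors, with 3667.8 normalised reads with IL-4 and 478.3 in untreated cells, 7.67-fold higher over 29.8 and 7.6 kb. Il4ra, the IL-4 receptor gene, had 4346.4 and 4496.6 reads, Il2rg, the common γ chain, had 266.5 and 269.7, and Stat6 had 21255.8 and 20543.7. Their ratios lay between 0.967 for Il4ra and 1.035 for Stat6.

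Of 22 transcription factors linked to alternative activation 3 were higher and 2 lower, shares close to the 10.4% and 8.3% of all genes. Per kb none of these 5 was counted, and Klf4 alone was higher (log2 ratio 1.01). Egr2, an early growth response factor, had 2832.6 normalised reads with IL-4 and 982.7 in untreated cells, 2.88-fold higher, Batf3 had 15672.2 and 6170.5, 2.54-fold higher, and Myc had 3744.7 and 1481.8, 2.53-fold higher. Klf2 had 847.1 and 1778.8 reads, 2.10 times lower, and Bhlhe41 had 1228.1 and 2929.7, 2.39 times lower. Irf4 and Klf4 had ratios of 1.54 and 1.89 by reads, under the rule. Pparg, the nuclear receptor of lipid metabolism in alternatively activated macrophages, had 6043.4 reads with IL-4 and 8422.1 in untreated cells, also under it. None of the 22 was called in 1 library alone.

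Of 13 measured genes of cell fusion and adhesion, the steps by which IL-4 is known to make multinucleated giant cells, 4 were higher and none lower. Among all genes the shares were 10.4% and 8.3%. Cdh1 with its whole span (chr8:106603350-106670247) had 14135.4 normalised reads with IL-4 and 353.8 in untreated cells, 39.95-fold higher (35.8 to 44.7), over 111.8 and 7.6 kb. Itgb3, the β3 integrin gene, had 10360.5 and 2207.9 reads, 4.69-fold higher over 46.8 and 33.6 kb, and Ocstamp, a membrane protein gene of fusing cells, had 3455.3 and 764.4, 4.52-fold higher. Mmp9, a matrix protease gene, had 239.0 with IL-4 and was not called in untreated cells. Dcstamp, the other fusion receptor gene of the list, had 161.2 and 104.8 reads, under the rule. Cdh1 and Itgb3 passed per kb as well.

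In the metabolic lists few genes were counted, and of all genes 10.4% were higher and 8.3% lower. Of 20 genes of lipid uptake and oxidation 3 were higher and 2 lower, and per kb 1 was higher and none lower. Lpl, the lipoprotein lipase gene, had 9744.2 normalised reads with IL-4 and 1951.3 in untreated cells, 4.99-fold higher, while Angptl2 and Olr1 were 2.33-fold and 2.26-fold higher. Abca1, which exports cholesterol from cells, had 1049.5 and 4455.1 reads, 4.25 times lower, and Fabp5, a fatty acid carrier gene, had 1314.2 and 3684.2, 2.80 times lower. Of 14 genes of eicosanoid synthesis 2 were higher and 2 lower, and none was counted per kb. Ptgs1, the constitutive cyclooxygenase gene, had 4257.6 and 841.9 reads, 5.06-fold higher, and Pla2g4a, which releases arachidonic acid, had 15188.6 and 3565.2, 4.26-fold higher. Hpgd, which breaks down prostaglandins, had 565.1 and 2568.2 reads, 4.55 times lower, and Lta4h, of leukotriene synthesis, had 486.3 and 1328.9, 2.73 times lower. Of 12 genes of polyamine and type 2 metabolism, Srm, the spermidine synthase gene, had 774.8 and 125.6 reads, 6.17-fold higher, and Odc1, which makes putrescine from ornithine, had 551.3 and 241.3, 2.28-fold higher. Arg2, the mitochondrial arginase gene, had 228.0 and 829.9 reads, 3.64 times lower, opposite to Arg1.

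Among genes called in both libraries, the largest ratios belonged to genes outside these lists, apart from Cdh1. Msx3, a homeobox gene (chr7:140046157-140049088), had 5244.8 normalised reads over 21.4 kb with IL-4 and 50.2 over 1.0 kb in untreated cells, 104-fold higher (78.2 to 143) and 4.88-fold higher per kb. Scn3a, a sodium channel gene, had 7233.9 and 78.6 reads, 92.0-fold higher, and Dnah12, a dynein gene, had 9729.5 over 144.2 kb and 235.9 over 7.2 kb, 41.3-fold higher. Tarm1, which encodes a receptor of myeloid cells, had 2643.0 and 72.1 reads, 36.7-fold higher. Ppp2r3a, Mark1, Spsb1, Itgb8, Tas2r108, Ank3 and Pex26 followed, between 33.6-fold and 21.1-fold higher. With IL-4 at 2 h the 12 genes had between 637.8 reads, at Tas2r108, and 16040.7, at Cdh1. In untreated scramble cells Scn3a, Tas2r108 and Ank3 were not called, and Cdh1 had the most reads, with 1076.1. A region inside a gene need not act on that gene.

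The genes with the most reads among those called with IL-4 alone were Il31ra, with 8887.9 normalised reads over 73.6 kb shared with Il6st, and Rmi2, with 5548.9 over 37.4 kb, followed by Tmem26 and Rnase2a. Il31ra encodes a receptor chain for IL-31, and Il6st the signalling chain gp130 of IL-6-type receptors. Counting only regions over gene starts, Il31ra had a log2 ratio of 0.24. Rmi2 was also called with IFNγ at 4 h, with 4859.3 reads, whereas Il31ra had 143.7 there. Cystm1, Tnk2 and the ribonuclease gene Ang2, with Ear14, had 2294.1, 1856.3 and 1689.7 reads with IL-4.

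On the lower side, Cd38, a surface enzyme that consumes NAD and a marker of inflammatory macrophages (chr5:43868809-43912374), had 49.5 normalised reads with IL-4 and 989.3 in untreated cells, 20.0 times lower (15.2 to 26.8). It was not called with IL-4 at 2 h and had 968.9 reads in untreated scramble cells. Clec2e, a C-type lectin gene, had 74.2 and 1373.7 reads, 18.5 times lower, and Ptger3, the gene of a prostaglandin E2 receptor, had 157.5 and 1930.5, 12.3 times lower. Rell1, a relative of the TNF receptors, had 586.1 over 11.4 kb and 6349.6 over 43.6 kb, 10.8 times lower, and Dscam had 487.2 and 5196.5, 10.7 times lower. The greatest loss by ratio was at Lrrc14b, in a region with Ccdc127 and Zfp72, with 40.3 and 1318.0 reads, 32.7 times lower (24.2 to 45.3), followed by Cntnap2 with 62.3 and 1858.5, 29.8 times lower. Gm39773, Vmn2r27, Tmem266, Dscaml1 and Mfsd6 lay between 18.5 and 10.8 times lower. In untreated scramble cells Lrrc14b had 469.9 reads, Cntnap2 673.9, Clec2e 911.3, Ptger3 908.7, Rell1 2779.1 and Dscam 1895.7, between the IL-4 and untreated values. Tmem266 and Dscaml1 had 1313.7 and 633.5 there, close to the 1332.2 and 627.9 of untreated cells. Ptger3 turned round per kb (log2 ratio 0.14), since its called length was 2.2 kb with IL-4 and 29.6 kb in untreated cells.

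The 8 genes with the most reads among those called in untreated cells alone had at most 836.4. Slc40a1, which encodes ferroportin, the iron exporter of macrophages (chr1:45908070-45926532), was not called with IL-4 at 4 h and had 685.7 normalised reads over 17.0 kb in untreated cells. It had 58.8 reads with IL-4 at 2 h and 628.9 in untreated scramble cells. Selp, the P-selectin gene, was likewise called with 638.8 reads in untreated cells and not with IL-4 at 4 h, and had 102.2 with IL-4 at 2 h and 343.5 in scramble cells. Kcnj9, Fer1l6, Tex52, Macc1, Slc14a2 and Adra1a had between 479.4 and 836.4 in untreated cells, and none of them was called with IL-4 at 2 h. Of these 8 genes Macc1 and Slc14a2 were not called in scramble cells either.

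Genes of classical activation, the programme set off by interferon and bacterial products, were lower more often than higher. Of 22 measured 6 were lower and 2 higher, against 8.3% lower and 10.4% higher among all genes, so the higher count was near that share. The median log2 ratio was -0.15 and, per kb, 0.04, where none was counted in either direction. Nos2, the inducible nitric oxide synthase that competes with Arg1 for arginine (chr11:78920787-78960226), had 278.4 normalised reads with IL-4 and 1011.1 in untreated cells, 3.63 times lower (3.19 to 4.15), over 5.0 and 10.0 kb. Cd86, a costimulatory ligand gene, had 448.7 and 1421.7 reads, 3.17 times lower, and Ccl5, a T cell attractant gene, had 408.4 and 1079.9, 2.64 times lower. Il12b had 585.2 and 1264.5, 2.16 times lower, Cxcl10 had 44.0 and 109.2, 2.48 times lower, and Socs3 is given above. The higher genes were Cd40, a costimulatory receptor gene, with 2132.0 and 951.1 reads, 2.24-fold higher, and Il12a, with 179.5 with IL-4 and no island in untreated cells. Tnf had 8757.8 and 9491.1 and Il1b 365.4 and 422.6, both under the rule.

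Of 25 NF-κB and inflammatory genes 5 were lower and 1 higher, against 8.3% and 10.4% of all genes, with a median log2 ratio of -0.17. Clec4e, which encodes the fungal and mycobacterial receptor Mincle, had 210.6 normalised reads with IL-4 and 822.2 in untreated cells, 3.90 times lower, also per kb. Cxcl1 and Cxcl2, neutrophil attractants with a region in common, were 2.24 and 2.10 times lower, and Cxcl3 was not called with IL-4 and had 242.4 in untreated cells. Nfkbiz, a nuclear partner of NF-κB, had 576.0 and 1255.7 reads, 2.18 times lower. The higher gene was Ccl2, in the region given above. Ccl3, Ccl4 and Ccl9 of the same list, in 1 region, had a log2 ratio of -0.78, under the rule. Per kb none of these Cxcl genes was counted.

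Among interferon-stimulated genes every gene counted was lower with IL-4. Of 22 measured antiviral genes 7 were lower and none higher, with a median log2 ratio of -0.57 and of -0.27 per kb, where 1 was lower. Over all genes 8.3% were lower and 10.4% higher by reads. Rsad2, which encodes viperin, had 280.2 normalised reads with IL-4 and 867.0 in untreated cells, 3.09 times lower, and its neighbour Cmpk2 had 169.4 and 396.4, 2.34 times lower. Ifit2 had 387.4 and 1172.7 reads, 3.03 times lower, Oasl1 had 430.4 and 1148.7, 2.67 times lower, and Oasl2, Isg20 and Herc6 were 2.09, 2.23 and 2.33 times lower. Of the 20 genes called in both libraries 16 had a longer called length in untreated cells. Of 13 measured guanylate-binding protein and immunity-related GTPase genes, defence proteins against intracellular pathogens, 4 were counted as lower and none as higher, with a median of -0.65. Gbp3 had 197.8 and 534.0 reads, 2.70 times lower, and Gbp2 and Gbp2b, with 1 region in common, 199.6 and 417.1, 2.09 times lower. The last, Tgtp2, was called with IL-4 alone at 25.6 reads, below the filled-in value of the untreated library, so its direction has no meaning.

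**Figure D4:**
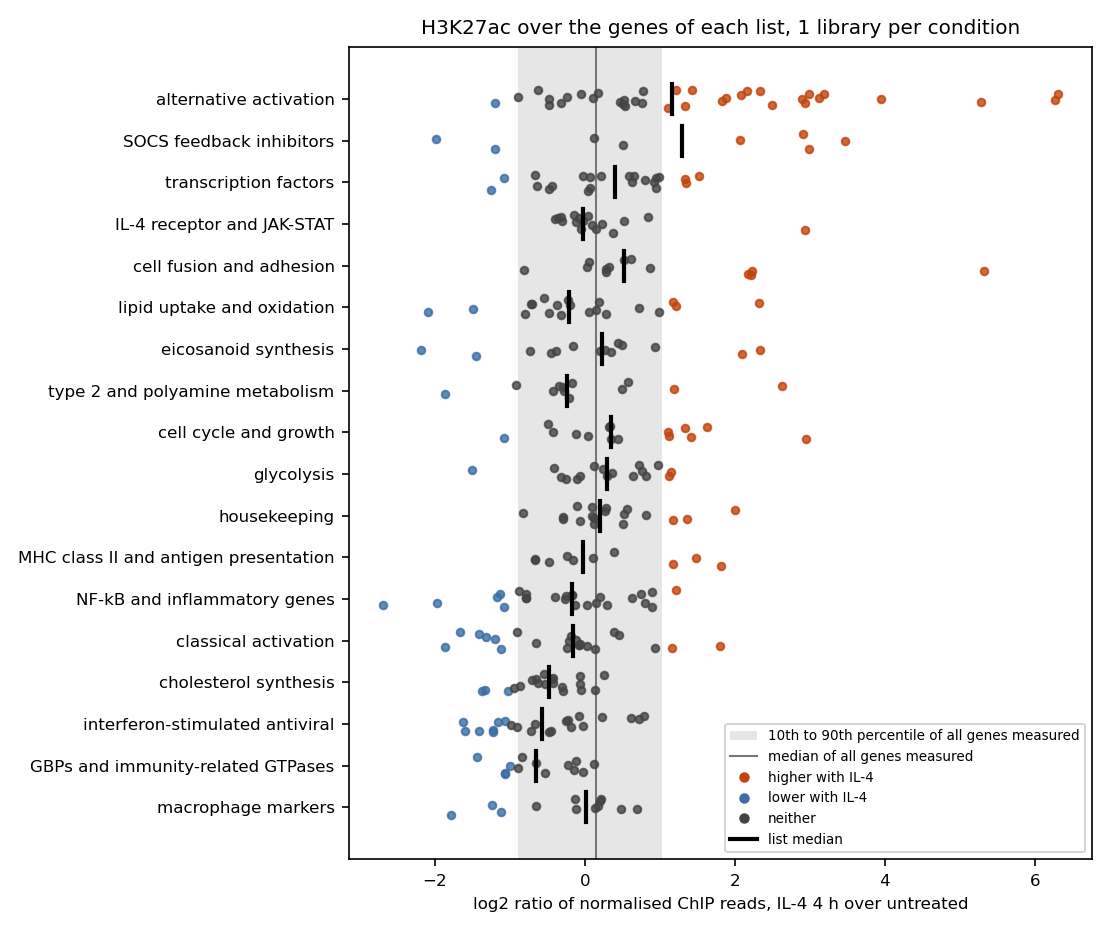
The log2 ratio of normalised ChIP reads of IL-4 at 4 h over untreated cells for each measured gene of 18 lists (points, x axis), with orange for genes counted as higher, blue for lower and grey for neither, black bars at the list medians, a grey line at the median of all genes measured and a grey band from their 10th to 90th percentile. The medians lay between 1.29 for the SOCS inhibitors and -0.65 for guanylate-binding proteins and related GTPases.

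Of 12 macrophage markers none was higher and 3 were lower with IL-4, against 10.4% and 8.3% of all genes, and the median log2 ratio was 0.01. Lyz2, which encodes lysozyme, had 1959.8 normalised reads with IL-4 and 6746.0 in untreated cells, 3.44 times lower and also lower per kb, in a region with Lyz1. Cd14, the co-receptor for bacterial lipopolysaccharide, had 4907.8 and 11540.7 reads, 2.35 times lower, and Ndufa2 carried the same reads. Ctsd, the gene of the lysosomal protease cathepsin D, had 7313.6 and 15786.1, 2.16 times lower. Cd68 had 4579.0 and 4997.8, under the rule.

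Of 10 measured genes of antigen presentation by MHC class II 3 were higher and none lower, with a median log2 ratio of -0.02. The shares over all genes were 10.4% and 8.3%. Cd74, the invariant chain gene, had 2963.5 normalised reads with IL-4 and 1315.8 in untreated cells, 2.25-fold higher over the same called length. The adjacent genes H2-DMb1 and H2-DMb2, of the peptide loader, had 619.1 and 175.8 reads and 2511.1 and 896.5 reads, and H2-DMb1 turned round per kb (log2 ratio -0.59). Ciita, the master regulator of the class, had 2332.6 and 2746.2 reads, and H2-Aa and H2-Ab1 were called in neither library.

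Of 20 cholesterol synthesis genes none was higher and 3 were lower with IL-4, against 10.4% and 8.3% of all genes, with a median log2 ratio of -0.48. Per kb none was counted and the median was -0.19, and 18 had the longer called length in untreated cells. Untreated scramble cells over untreated cells, a pair without IL-4, also had none higher and 3 lower, with a median of -0.54. Over all genes of that pair 9.81% were higher and 3.53% lower, with a median of 0.14. Insig1, a sterol-dependent brake on the pathway, had 535.7 normalised reads with IL-4 and 1349.6 in untreated cells, 2.52 times lower. Lss had 260.1 and 673.7 reads, 2.59 times lower, and Sc5d had 114.5 and 232.6, 2.03 times lower.

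Of 15 measured genes of cell cycle and growth 6 were higher and 1 lower, with a median log2 ratio of 0.36, against 10.4% and 8.3% of all genes and their median of 0.15. Per kb 3 were higher and none lower. The cyclin genes Ccnd2, Ccne1 and Ccnd1 had 750.0 and 97.2, 328.8 and 105.9, and 2935.2 and 1100.7 normalised reads with IL-4 and in untreated cells, 7.72-fold, 3.10-fold and 2.67-fold higher. Cdkn1a, which encodes the inhibitor p21, was 2.15-fold higher, Mcm5 2.17-fold higher (log2 ratio -0.39 with islands of all 13 libraries merged), and Rb1, the retinoblastoma gene, 2.10 times lower. Of 17 glycolysis genes Slc2a1, the glucose transporter, and Pfkl were 2.18-fold and 2.21-fold higher, and Pfkfb3, a regulator of glycolytic flux, had 1261.1 and 3568.4 reads, 2.83 times lower, with a per-kb log2 ratio of 0.26. Of 18 housekeeping genes Tfrc, the transferrin receptor, Rplp0 and Rpl13a were 4.00-fold, 2.57-fold and 2.26-fold higher and none was lower, with a list median of 0.20.

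The IL-4 libraries of 2 h and 4 h can be set beside each other directly. Between them 243 of 13073 genes were higher at 4 h (1.86%) and 365 lower (2.79%). Of 36 alternative activation genes 2 were higher and 1 lower at 4 h than at 2 h, with a median log2 ratio of 0.10. The higher ones were Retnla and Fn1, which had no island at 2 h. Ccl12, an attractant of monocytes, was the lower one, with 2665.4 normalised reads in untreated cells, 16223.9 at 2 h and 7156.1 at 4 h. Of 20 genes that make cholesterol none was higher at 4 h and 10 were lower, with a median of -0.99. Insig1 had 1349.6 reads in untreated cells, 1331.3 at 2 h and 535.7 at 4 h. Of 22 antiviral genes 8 were lower at 4 h and none higher, with a median of -0.74. Ifit2 had 1172.7 reads in untreated cells, 1053.8 at 2 h and 387.4 at 4 h. In the same order Rsad2 had 867.0, 598.6 and 280.2, and Socs3 had 4508.6, 5172.4 and 1971.7. The signal of these genes was thus lower at 4 h than at 2 h. Over untreated cells, the list medians at 4 h and at 2 h were 1.16 and 1.25 for alternative activation, -0.57 and 0.08 for antiviral genes and -0.48 and 0.50 for cholesterol synthesis, and these comparisons share the untreated library.

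IL-4 added to IFNγ offers a comparison with no library in common, since IFNγ plus IL-4 at 4 h was set over IFNγ at 4 h. In it 10.8% of 35720 regions were higher and 12.7% lower. Of the 4746 regions higher with IL-4 alone 4185 were called in at least 1 of these libraries, and 32.1% of those were at least 2-fold higher and 4.87% at least 2-fold lower when IL-4 was added. Of the 6296 regions lower with IL-4 alone 4618 were called, with 9.18% higher and 19.0% lower. Of regions in neither class 6.11% were higher and 6.37% lower. The regions higher with IL-4 alone thus had the larger share of gains, and the regions lower with it the larger share of losses. Across the 20521 regions called in all 4 libraries Pearson's r of the log2 ratios was 0.27 and Spearman's rho 0.23, a description across regions that are not independent replicates.

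The lists followed this to different degrees. With IL-4 added to IFNγ, 14 of 34 alternative activation genes were higher and 4 lower, against 6.33% and 5.71% of all genes, with a median log2 ratio of 0.60. Arg1 had 8244.8 normalised reads with both cytokines and 2503.8 with IFNγ alone, Mgl2 had 2139.3 and 198.4, and Cdh1 had 8434.5 and 3384.0. Socs1, higher with IL-4 alone, had 14275.8 with both and 12423.9 with IFNγ, so that its signal was already high without IL-4. Some alternative activation genes were likewise high with IFNγ alone. Itgax had 2375.2 with both and 2121.2 with IFNγ, and Hbegf had 1275.6 and 834.1. Of the NF-κB list 9 of 23 genes were lower and none higher when IL-4 was added, and of the antiviral list 3 of 22 were lower and none higher. Clec4e was not called with both cytokines and had 1163.7 with IFNγ alone, Ccl5 had 1609.4 and 3972.7, and Cd86 had 2362.0 and 4105.4. In the cholesterol list 11 of 20 genes were higher and none lower, with a median of 1.11, and the difference from IL-4 alone was not tested. Idi1, an enzyme gene of isoprenoid synthesis, had 373.0 with both cytokines and 107.0 with IFNγ, and Sqle, of squalene oxidation, had 442.9 and 155.4.

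**Figure D5:**
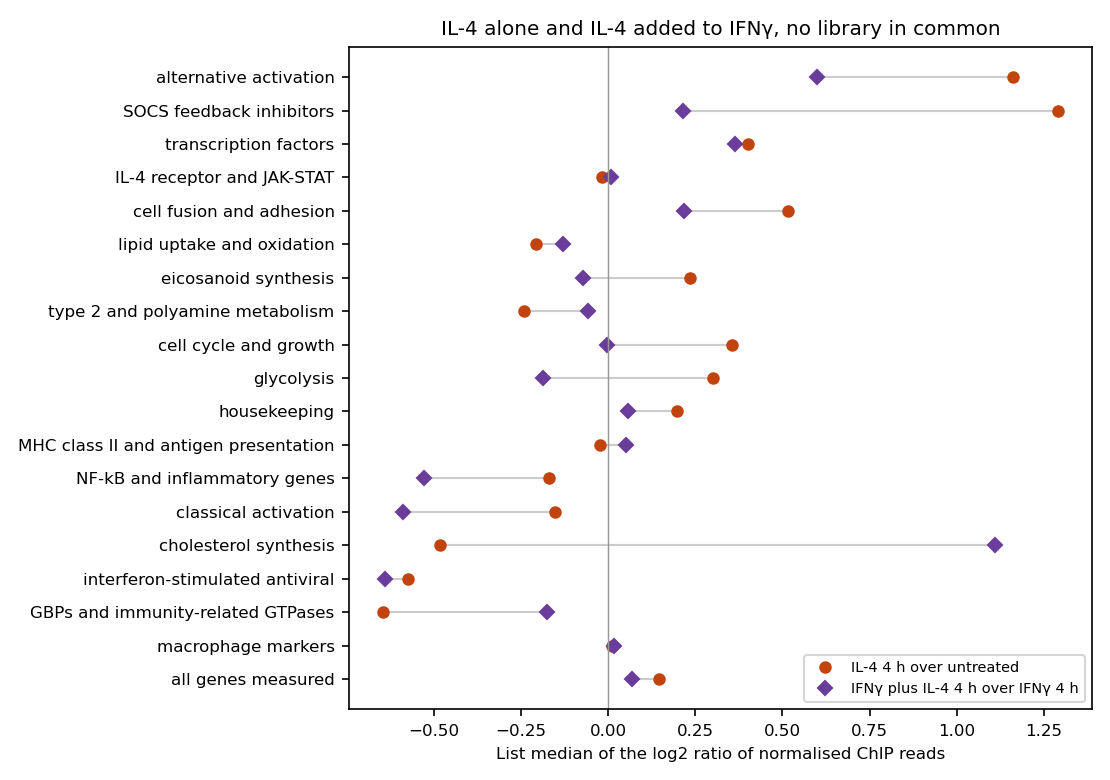
Median log2 ratio of normalised ChIP reads (x axis) of 18 gene lists and of all genes measured, for IL-4 at 4 h over untreated cells (orange circles) and for IFNγ plus IL-4 at 4 h over IFNγ at 4 h (purple diamonds), 2 comparisons with no library in common. The medians of alternative activation were 1.16 and 0.60, and those of cholesterol synthesis were -0.48 and 1.11.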

How the data were processed

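H3K27ac ChIP-seq islands of 2 of 13 libraries were compared, 1 library per condition. The libraries of IL-4 at 2 h, IFNγ and IFNγ plus IL-4 at 2 h and 4 h, and untreated scramble cells were set beside them. For the reads of these other libraries over the merged regions, each island counted by the share of its length inside the region. The submitters' processing notes name Bowtie2 2.2.6 for alignment, SICER 1.1 for island calling and the build mm10 (GRCm38), and other settings are not given in the sources used here. Each deposited table gives raw counts of ChIP and control reads per island, which the authors did not normalise. Its p-value and FDR, as deposited, and its deposited fold (the ratio of ChIP to scaled control reads) come from the authors' island calling and were used only as thresholds and to recover library totals. The lowest fold was 1.19 with IL-4 and 1.109 in untreated cells, and the smallest island held 19 reads in each.

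Reads were summed per merged region and divided by median-of-ratios size factors, 1.0919 for IL-4 and 0.9158 for untreated. Where a library had no island the size rule used a filled-in value, and no fold is given. Because this value is higher for untreated cells, 137 regions and 29 genes called with IL-4 alone counted as lower. Genes are protein-coding spans of GRCm38 in RefSeq, without strand.

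The members and lists were chosen with earlier results of these data known. Named genes are list members, the 12 highest and 12 lowest ratios among genes called in both libraries, the 8 genes with the most reads in each single library, the 4 highest and 4 lowest regions outside genes, and the 5 largest differences in each direction. Alternatives changed scaling, thresholds, region building, gene windows, length and the filled-in value. The rule was tested on simulated data. Python 3.11.15, numpy 2.4.6, pandas 2.3.3, scipy 1.17.1 and matplotlib 3.10.9 were used.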

Additional observations from a re-analysis of the deposited data

Results flagged for a closer look

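In 2 gene lists at least 3 genes passed the size rule, all one way, with IL-4 alone, and at least 3, all the other way, with IL-4 added to IFNγ. Lists with fewer genes counted were not considered. Among all genes 10.4% were higher and 8.3% lower with IL-4 alone, and 6.33% and 5.71% with IL-4 added to IFNγ. Of cholesterol synthesis genes 3 were lower and none higher with IL-4 alone, and 11 were higher and none lower with IL-4 added to IFNγ, while per kb none was counted with IL-4 alone. The median log2 ratio with IL-4 alone minus that with IL-4 added to IFNγ was -1.59. Untreated scramble cells over untreated cells, without IL-4, also had 3 of these genes lower and none higher, against 3.53% and 9.81% of all genes in that pair. Of MHC class II and antigen presentation genes 3 were higher and none lower with IL-4 alone, and 3 were lower and none higher with IL-4 added to IFNγ, while the difference of the medians was -0.074. These differences were not tested, since each condition had 1 library.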

How the results depend on the processing

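No paired analysis was possible because each condition had 1 library. The regions counted as higher and lower with IL-4 moved to 3160 and 3327 with a minimum of 200 reads, to 2500 and 2941 with a 3-fold limit, to 2294 and 932 per kb, and to 2580 and 3706 when kept to regions called in both libraries. Among regions called in both libraries the counts were 1151 and 1571 with the 3-fold limit and 1418 and 503 per kb. The genes counted moved to 599 and 406 with the 3-fold limit, to 871 and 144 per kb, and to 794 and 452 when only regions over gene starts counted. Of 130 named genes past the rule, 53 passed per kb, 63 did not and 14 took the other sign. These were Pfkfb3 (0.26), Ptger3 (0.14), Cxcl10 (0.009), Herc6 (0.47), Olr1 (-0.20), Matk (-0.079), Lta4h (0.55), Il12b (0.11), Tgtp2 (0.75), Cmpk2 (0.44), Cd86 (0.073), Nfkbiz (0.16), H2-DMb1 (-0.59) and Ms4a2 (-0.093), as log2 ratios per kb. Mcm5 had -0.39 when islands of all 13 libraries were merged, and Tgtp2 0.31 when a missing island got the lowest reads of any island. The scaling alternatives kept 128 and 130 of the 130 genes. The other alternatives kept each count of regions and genes within 1.5 times, including those chosen after seeing the data. The share of counted genes that were higher was 55.7%, 85.8% per kb and between 53.2% and 63.7% otherwise. Depth and the authors' threshold limit small islands, whose absence is no measurement.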

Other observations

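Families outside the lists were looked at after their values were seen. Of 76 ribosomal protein genes, which are among the most transcribed genes of any cell, 30 were higher with IL-4 and none lower, with a median log2 ratio of 0.92, and per kb 23 were higher. Rps24 had 584.3 normalised reads with IL-4 and 152.9 in untreated cells, Rps4x had 718.0 and 204.2, and Rps18 had 4114.7 and 1347.5. Across the processing alternatives the median of this family lay between 0.71 and 0.99. Of 78 mitochondrial ribosomal protein genes 8 were higher and 1 lower, of 39 proteasome genes 1 was higher, and of 95 respiratory chain genes 2 were higher and 2 lower, counts at or below the shares of 10.4% higher and 8.3% lower among all genes.

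Of 14 CC chemokine genes 7 were higher and 1 lower, whereas of 7 CXC chemokine genes none was higher and 5 were lower. Among all genes 10.4% were higher and 8.3% lower. Ccl2 and Ccl7 carry the same reads, as do Ccl11 and Ccl12, and Ccl3, Ccl4, Ccl6 and Ccl9, and Cxcl1 and Cxcl2 have a region in common. The counts of genes thus repeat some regions. Ccl1 had 3843.6 normalised reads with IL-4 and 817.9 in untreated cells, and Ccl8 had 468.9 and 64.4. The CC median ranged from -0.27 to 0.91 over the alternatives, so its direction depends on the processing, and per kb none of the CXC genes was counted, with a median of -0.20. Of 26 C-type lectin genes 8 were lower and 2 higher, and per kb 6 were lower and 1 higher. Clec4d, a partner of Mincle, had 1993.7 and 8628.5 reads, and Clec4n, which encodes Dectin-2, had 480.8 and 2021.2. Of 23 interferon-induced Ifi genes 9 were lower and none higher, and of 12 cathepsin genes 3 were lower, such as Ctse with 986.3 and 3437.4, and 1 was higher. Per kb 3 Ifi genes and 1 cathepsin gene were lower.

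Of 338 microRNA genes measured 53 were higher (15.7%) and 34 lower (10.1%), by the same rule over the gene's region, against 10.4% and 8.3% of protein-coding genes and 13.8% and 18.3% of regions. The region over Mir17 had 353.5 normalised reads with IL-4 and 69.9 in untreated cells. Those over Mir223 and Mir146b, known in myeloid cells, had 1839.8 and 3042.1, and 3082.6 and 1681.6, both under the rule.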
